A study of Arabidopsis thaliana with 6 samples.

Results

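SAUR genes (small auxin-up RNA) form one of the largest families of early auxin-responsive genes in Arabidopsis thaliana. The family examined here consists of the rows of a deposited expression table whose gene name begins with SAUR, with or without a leading AT, followed by digits. The rule found 77 of the 33511 rows. The members were chosen by name and not by any measured value, but the family itself was selected on its fold changes between these same libraries. The adjusted p-values below therefore describe these libraries and are no independent evidence. Of the 77 rows, 45 reached 1 FPKM (fragment counts scaled by transcript length and by the fragments of the library) in at least 3 of the 6 libraries and were tested, and 33 reached it in all 6. At or above 1 FPKM stood 39, 40 and 38 of the rows in estradiol 1, 2 and 3, against 47, 46 and 44 in mock 1, 2 and 3.

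Messenger RNA was profiled in whole seedlings of the Col-0 accession that carried a MUTE cDNA in pER8, whose inserted gene is transcribed once estradiol has bound and activated a synthetic factor. MUTE encodes a basic helix-loop-helix transcription factor of the stomatal lineage. Homozygous seedlings grown for 4 days on plates were bathed for 8 h in liquid medium with 10 µM estradiol (3 libraries) or with the solvent DMSO, the mock treatment (3 libraries), and each library came from a pool of 40 to 50 seedlings. Both groups carry the construct, and no estradiol-treated seedlings without it are in the comparison, so an effect of MUTE and an effect of estradiol or of the activator cannot be told apart. The activator of pER8 is driven by a constitutive synthetic promoter, and how many independent lines were used is not stated in the labels.

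SAUR genes are short and mostly without introns, many stand in tandem arrays, and their transcripts appear within minutes of auxin treatment and decay quickly. Several SAUR proteins bind and inhibit phosphatases of the PP2C.D class, which otherwise remove an activating phosphate from the plasma membrane H+-ATPases. The released proton pumps acidify the cell wall and favour cell expansion, and SAUR proteins are best known for promoting the growth of hypocotyls, cotyledons and other elongating organs.

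The induced gene MUTE stood at 2986 ± 54.8 FPKM in estradiol and 2.37 ± 0.817 FPKM in mock libraries (SD, n = 3 each). Estradiol 1 and 3 stood apart by their numbers of rows listed at 0, which were 9514 and 9182, while estradiol 2 had 8583 and the mock libraries 8559 to 8679. For SAUR rows whose call changes without these 2 libraries together, the adjusted p without them is given. The pathway and marker genes were not refitted without them. The depth behind the FPKM values is unknown. Pearson's r of log2(FPKM + 1) across genes, which are not independent replicates, was 0.994 to 0.997 between libraries of the same group. Markers of photosynthetic tissue, epidermis, phloem, root hairs and endodermis were all listed above 0 in every library, so that the libraries held shoot and root RNA as the label seedling states.

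The table's names were checked against the RefSeq annotation of assembly TAIR10.1. All 77 rows were matched to a locus, and for 75 of them the annotated product names the SAUR-like family. SAUR79 (AT2G35290) is annotated as an uncharacterized protein. The symbol SAUR21 belongs to 2 loci in the annotation, one of which, AT5G18030, has a row of its own in the table, so the SAUR21 row was assigned to AT5G01830, whose product is an ARM repeat protein with a coding length of 2025 bases. The 75 annotated SAUR-like members have coding lengths of 261 to 573 bases, and 70 of them have a transcript of a single exon. The value of SAUR21 described below is therefore not that of a small auxin-up RNA by this annotation.

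SAUR transcripts were lower with MUTE induction in about as many members as were not. Of the 45 tested rows, 23 were lower and 1 was higher with estradiol at a limma adjusted p under 0.05, and 21 did not pass. Among all 19134 tested genes 12.9% were lower and 23.3% were higher by the same rule, and 36.2% passed in either direction. The median log2 fold change of the tested SAUR rows, on the scale of log2(FPKM + 1), was -0.33, against 0.05 for all tested genes. On that scale the folds of weakly expressed genes come out too small. In 23 rows each estradiol value lay below each mock value, and these were the same 23 rows that passed as lower. Over all tested genes this held for 17.4%, while 33.7% had each estradiol value above each mock value, as 1 SAUR row did. The fitted change was below 0 in 34 of the 45 SAUR rows and in 38.2% of all tested genes. Past the threshold and lower by at least 1 on the log2 scale were 5 of the 45 SAUR rows (11.1%) and 0.423% of all tested genes. The members and their number were fixed with this contrast known, and the shares are set side by side without a test. In RNA from whole seedlings, fewer cells that express a gene and less RNA per cell cannot be told apart.

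The filter let in 4 rows, SAUR46, SAUR65, SAUR69 and ATSAUR15, through their mock values alone, and such rows could only be lower. Without them 19 of 41 rows were lower and 1 was higher, with a median log2 fold change of -0.27. The median SD between replicates of log2(FPKM + 1) was 0.150 in estradiol and 0.102 in mock libraries for SAUR rows and 0.0592 and 0.0565 for all tested genes. Without estradiol 1 and 3 together, 17 of the 45 rows were lower, and without mock 2 alone 19 were. With no filter, 74 rows with a value above 0 were tested, of which 23 were lower and 1 was higher, against 9.12% and 14.9% of 26727 genes.

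**Figure D1:**
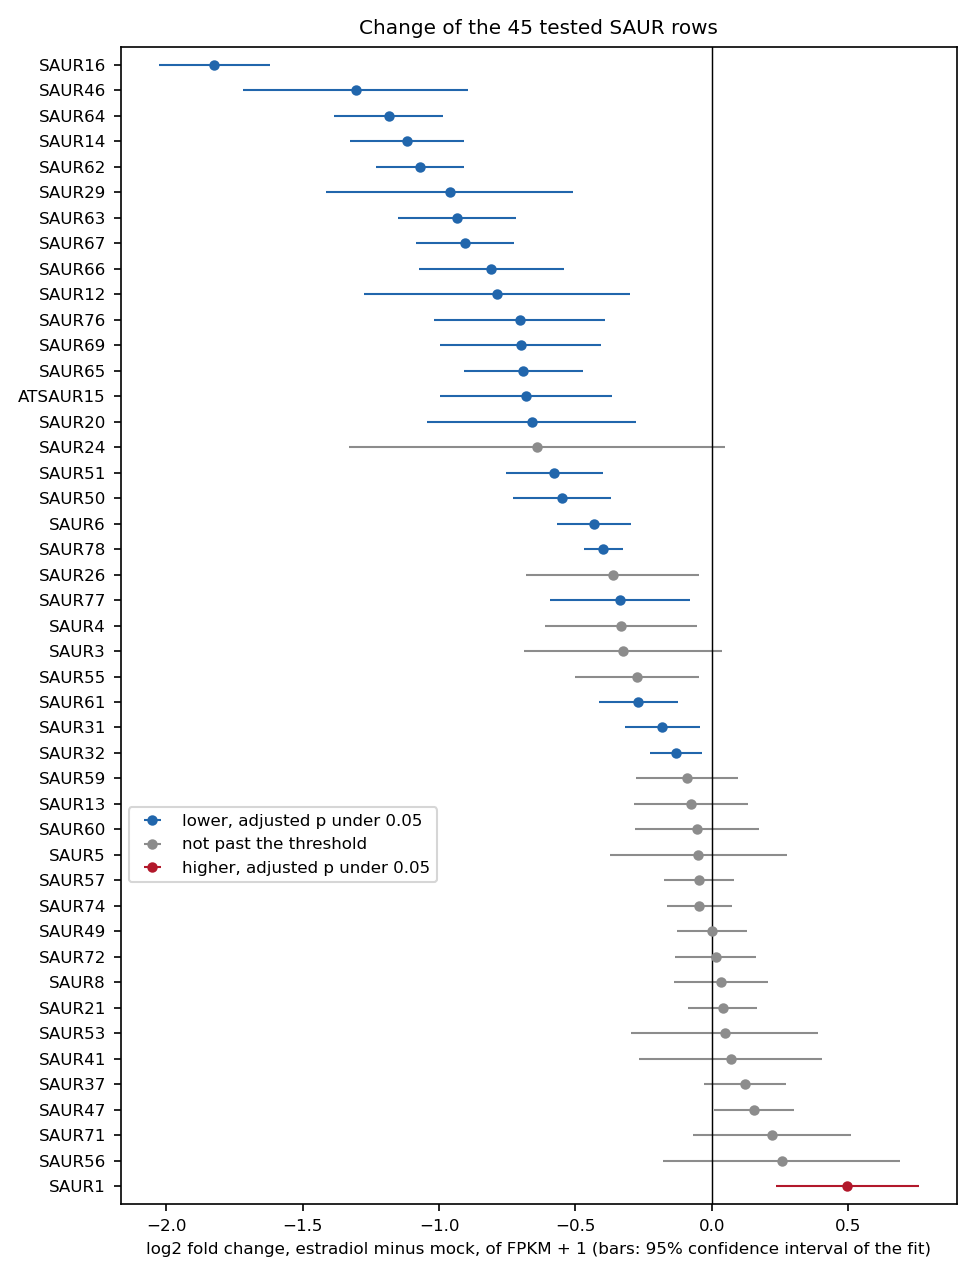
Log2 fold change (estradiol minus mock, of FPKM + 1) of the 45 tested SAUR rows, sorted, with the 95% confidence interval of the limma fit, coloured by the call at an adjusted p of 0.05. The 23 lower rows run from -1.83 for SAUR16 to -0.13 for SAUR32, and SAUR1 at 0.50 is the only row past the threshold on the other side.

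Summed over the 77 rows, SAUR transcripts made up 328, 331 and 308 FPKM in estradiol 1, 2 and 3, against 450, 448 and 441 FPKM in mock 1, 2 and 3. The estradiol sum was 72.2% of the mock sum, and the groups did not overlap. Because FPKM is scaled for length, the sum weights genes by transcript number. SAUR14, SAUR6, SAUR78 and SAUR16 together held 57.9% of the net difference of 124.0 FPKM, and the 10 rows with the largest differences held 79.5%.

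The largest array lies on chromosome 1, where SAUR61 to SAUR68 stand within 2 blocks of neighbouring genes. Members of this group, among them SAUR63, are known to promote the elongation of hypocotyls and floral organs. All 7 of its 8 rows that were tested were lower with estradiol, with log2 fold changes from -1.18 to -0.27 and a median of -0.90. SAUR65 among them entered the test through its mock values alone and could only be lower. The 250 bases upstream of the annotated start are shown for SAUR62, SAUR63, SAUR64 and SAUR67, the 4 rows of the array with the most negative changes. Those of SAUR16, the SAUR row with the most negative change of log2(FPKM + 1), are shown too. They were read from the RefSeq assembly TAIR10.1, whereas the submitters' processing notes name TAIR10, and the deposited table holds no coordinates. Capitals mark TGTCTC, the element bound by auxin response factors, its variant TGTCGG, and CANNTG, the E-box recognised by basic helix-loop-helix factors. Both strands were searched. The windows are chr1:10303419-10303668 (minus strand) for SAUR62, chr1:10305109-10305358 (minus) for SAUR63, chr1:10306596-10306845 (minus) for SAUR64, chr1:10322173-10322422 (plus) for SAUR67 and chr4:18129987-18130236 (plus) for SAUR16, each written 5′ to 3′ in the direction of the gene.
SAUR62: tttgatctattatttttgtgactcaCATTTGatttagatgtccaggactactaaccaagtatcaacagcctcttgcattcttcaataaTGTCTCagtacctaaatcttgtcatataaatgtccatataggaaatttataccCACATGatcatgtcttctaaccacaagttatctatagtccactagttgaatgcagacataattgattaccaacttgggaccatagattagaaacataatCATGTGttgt
SAUR63: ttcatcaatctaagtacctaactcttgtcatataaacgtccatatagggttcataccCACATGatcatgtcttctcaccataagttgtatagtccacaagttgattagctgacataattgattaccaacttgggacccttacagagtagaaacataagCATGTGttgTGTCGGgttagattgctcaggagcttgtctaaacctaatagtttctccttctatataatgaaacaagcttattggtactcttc
SAUR64: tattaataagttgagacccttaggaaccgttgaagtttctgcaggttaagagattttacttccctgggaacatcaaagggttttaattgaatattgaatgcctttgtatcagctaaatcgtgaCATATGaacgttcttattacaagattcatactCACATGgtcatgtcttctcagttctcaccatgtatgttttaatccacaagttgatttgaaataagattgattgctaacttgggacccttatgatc
SAUR67: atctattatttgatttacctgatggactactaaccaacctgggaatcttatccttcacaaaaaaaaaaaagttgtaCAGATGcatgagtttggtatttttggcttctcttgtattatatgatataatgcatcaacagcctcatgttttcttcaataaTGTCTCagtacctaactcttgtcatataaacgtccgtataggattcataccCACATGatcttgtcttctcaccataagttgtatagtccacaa
SAUR16: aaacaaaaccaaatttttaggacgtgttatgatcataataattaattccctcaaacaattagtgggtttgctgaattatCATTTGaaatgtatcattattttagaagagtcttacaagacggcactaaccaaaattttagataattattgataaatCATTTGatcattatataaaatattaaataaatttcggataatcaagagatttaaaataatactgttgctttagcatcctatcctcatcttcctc

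SAUR62 and SAUR67 both held TGTCTC, 162 and 93 bases upstream of the start, inside a shared run of 26 bases. SAUR63 and SAUR67 shared a run of 32 bases, SAUR62 and SAUR63 one of 27 bases, and SAUR63 and SAUR64 one of 15 bases. The E-box letters CACATG stood 109, 193, 95 and 42 bases upstream in SAUR62, SAUR63, SAUR64 and SAUR67. Their reverse complement CATGTG stood 10 bases upstream in SAUR62 and 92 in SAUR63. These 4 windows belong to the rows of the array with the most negative changes, and shared runs were sought only among the 5 windows shown. The windows of the other members of the array were not compared, so whether they share such runs is unknown. How often CACATG occurs in the other windows of the array or of all genes was not counted. SAUR16 held neither auxin element, and its longest run shared with another of the 5 windows was 9 bases. Part of the SAUR63 window overlaps a neighbouring gene, AT1G29435.

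SAUR64 (AT1G29450) was at 1.81, 1.46 and 1.31 FPKM in estradiol libraries, against 5.02, 4.93 and 4.25 FPKM in mock libraries. SAUR62 (AT1G29430) was at 3.68, 3.77 and 3.02 FPKM in estradiol libraries, against 8.62, 8.53 and 8.06 FPKM in mock libraries. In both genes the highest estradiol value was under the lowest mock value, with log2 fold changes of -1.18 (SE 0.0870, limma adjusted p 6.02e-05) for SAUR64 and -1.07 (SE 0.0706, limma adjusted p 3.69e-05) for SAUR62. SAUR63 (AT1G29440) had 3.79, 3.64 and 2.76 FPKM with estradiol and 7.89, 7.31 and 6.91 FPKM in mock, a log2 fold change of -0.94 (SE 0.0938). SAUR67 (AT1G29510) had 3.22, 3.14 and 2.63 FPKM with estradiol and 6.85, 6.75 and 5.83 FPKM in mock, a change of -0.90 (SE 0.0782). Levels in these 4 neighbours were thus at 32.3% to 46.3% of mock, and no library of one group reached the range of the other.

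The other members of the array were lower by smaller amounts or from lower levels. SAUR66 (AT1G29500) averaged 1.81 ± 0.475 FPKM in estradiol and 3.87 ± 0.251 FPKM in mock libraries (SD, n = 3 each), with a log2 fold change of -0.81. SAUR65 (AT1G29460) averaged 0.600 ± 0.175 FPKM in estradiol and 1.58 ± 0.178 FPKM in mock libraries, a change of -0.69. SAUR61 (AT1G29420), at the end of the array, was at 5.06 ± 0.363 and 6.31 ± 0.419 FPKM in estradiol and mock libraries, and its change of -0.27 (SE 0.0628, limma adjusted p 0.0119) was the smallest of the 7. Without estradiol 1 and 3 together, SAUR61 did not pass (-0.20, limma adjusted p 0.141). SAUR68 stayed under 0.3 FPKM in each library and was not tested.

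Near-identical copies limit single values here. Of their stretches of 50 bases, SAUR62 shared 23.2%, SAUR63 27.1% and SAUR67 25.1% with another gene, mostly SAUR75 for SAUR62 and each other for SAUR63 and SAUR67, and how fragments of shared stretches were counted is not given in the sources used here. SAUR64 and SAUR65 shared none, and SAUR66 0.44%. SAUR63, SAUR64 and SAUR61 overlap a gene on the other strand, and whether counting used the strand of the libraries is not stated.

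The array of SAUR13 to SAUR16 on chromosome 4 held SAUR16, the row with the most negative change of log2(FPKM + 1) in the family. SAUR16 (AT4G38860), which with SAUR50 promotes the opening and expansion of cotyledons in light, had 4.31, 3.56 and 4.14 FPKM with estradiol and 18.5, 17.1 and 14.7 FPKM in mock. Its mean was 23.9% of mock and its log2 fold change -1.83 (SE 0.0884, limma adjusted p 7.35e-06). Its neighbour SAUR14 (AT4G38840), of the same light-responsive class, had 19.2, 21.95 and 16.3 FPKM with estradiol and 43.4, 42.8 and 41.0 FPKM in mock, a change of -1.12 (SE 0.0903, limma adjusted p 9.14e-05). In both genes the groups lay far apart. Neither gene shared stretches of 50 bases with another gene, and neither overlaps one. ATSAUR15 (AT4G38850, also SAUR-AC1), widely used as an auxin reporter, was at 0.39, 0.66 and 0.67 FPKM with estradiol and 2.08, 1.4 and 1.15 FPKM in mock, a change of -0.68 (SE 0.137, limma adjusted p 0.00646). Its groups did not overlap, but it did not pass without estradiol 1 and 3 together (-0.60, limma adjusted p 0.0725). SAUR13 (AT4G38825), in the same array and overlapping a gene on the other strand, did not pass, at 1.197 ± 0.122 FPKM with estradiol and 1.32 ± 0.261 FPKM in mock (SD, n = 3 each), and the 95% confidence interval of its log2 change ran from -0.29 to 0.13.

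The array of SAUR49, SAUR50 and SAUR1 to SAUR5 on chromosome 4 was mixed. SAUR50 (AT4G34760) had 19.3, 15.8 and 15.96 FPKM with estradiol and 24.3, 27.2 and 24.5 FPKM in mock, a log2 fold change of -0.55 (SE 0.0780, limma adjusted p 0.00132), and its groups did not overlap. SAUR1 (AT4G34770) had 7.16, 4.95 and 5.45 FPKM with estradiol and 3.47, 3.78 and 4.21 FPKM in mock. It was higher in each estradiol library than in any mock library, by 0.50 (SE 0.114, limma adjusted p 0.0113), and did not pass without estradiol 1 and 3 together (0.31, limma adjusted p 0.0795). The other 4 tested genes of the array did not pass. SAUR3 and SAUR4 were at 1.85 ± 0.648 and 5.72 ± 0.241 FPKM with estradiol, against 2.54 ± 0.431 and 7.56 ± 1.56 FPKM in mock (SD, n = 3 each), and SAUR5 and SAUR49 differed by -0.05 and 0.00 on the log2 scale. Without estradiol 1 and 3 together SAUR5 passed as higher (0.29, limma adjusted p 0.0343). Whether SAUR1 and its neighbours differ in their response was not tested.

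**Figure D2:**
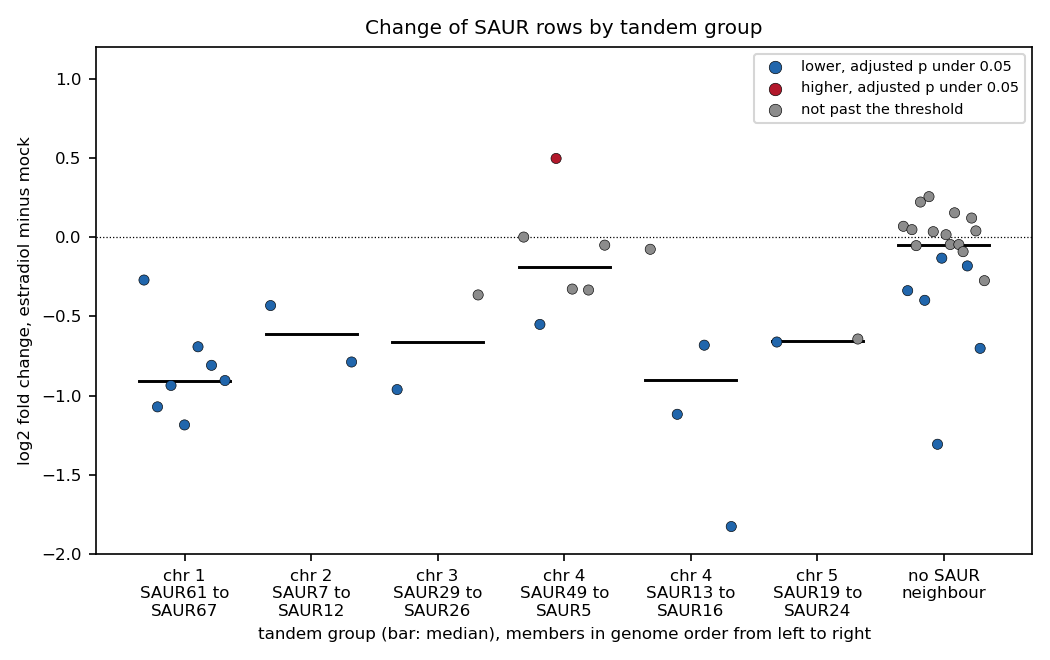
Log2 fold change of tested SAUR rows by tandem group (SAUR genes no more than 15000 bases apart, groups with at least 2 tested rows) and, at the right, of rows with no SAUR neighbour, with each group's median as a bar. All 7 points of the chromosome 1 array lie below 0, among them SAUR65, which was kept through its mock values alone. The array of SAUR49 to SAUR5 spans 0, and most rows without a SAUR neighbour lie close to 0.

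By position, 36 of the 77 rows fell into 8 tandem groups. Of the 25 tested rows in such groups 17 were lower and 1 was higher, with a median log2 fold change of -0.66. Of the 20 tested rows with no SAUR neighbour within 15000 bases 6 were lower and 0 were higher, with a median of -0.05. Among these 20 is the SAUR21 row, not a small auxin-up RNA by the annotation. Over all tested genes 12.9% were lower and 23.3% were higher. Rows kept through mock values alone were in both sets, SAUR65 and ATSAUR15 in tandem groups and SAUR46 and SAUR69 without a neighbour. Neighbours share sequence and descent and are not independent, so this difference was not tested.

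The array of SAUR19 to SAUR24 on chromosome 5, whose members promote hypocotyl elongation and include the PP2C.D inhibitor SAUR19, stood at low levels in these seedlings. SAUR20 (AT5G18020) had 1.70, 1.19 and 0.61 FPKM with estradiol and 2.27, 2.63 and 2.17 FPKM in mock, a log2 fold change of -0.66 (SE 0.167, limma adjusted p 0.0166). The groups did not overlap, and it did not pass without mock 2 (limma adjusted p 0.0538). SAUR24 (AT5G18080) had 1.63, 1.0 and 0.00 FPKM with estradiol and 1.64, 1.89 and 1.62 FPKM in mock. Its groups overlapped and it did not pass (-0.64, limma adjusted p 0.129), but it did without estradiol 1 (-0.94, limma adjusted p 0.0248) and without estradiol 1 and 3 together (-0.44, limma adjusted p 0.0242). Of their stretches of 50 bases SAUR20 shared 5.83% and SAUR24 7.11% with another gene, mostly SAUR19. SAUR19, SAUR22 and SAUR23 stayed under 0.9 FPKM in each library. The row of AT5G18030, the locus that also bears the symbol SAUR21 and lies in this array, falls outside the naming rule, and it had 0.79, 0.88 and 0.30 FPKM with estradiol against 1.82, 1.90 and 1.79 FPKM in mock, a change of -0.79 (SE 0.131, limma adjusted p 0.00263). That row too entered the test through its mock values alone and could only be lower.

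On chromosome 3, the array of SAUR26 to SAUR29 is known for its part in shoot growth at raised temperature. SAUR29 (AT3G03820) had 0.85, 2.46 and 1.68 FPKM with estradiol and 4.42, 4.06 and 3.61 FPKM in mock, a log2 fold change of -0.96 (SE 0.197, limma adjusted p 0.00701). The groups did not overlap, although estradiol 1 was much lower than estradiol 2, and without estradiol 1 and 3 together the change was -0.54 (limma adjusted p 0.0164). SAUR26 did not pass, at 0.863 ± 0.351 FPKM with estradiol and 1.37 ± 0.191 FPKM in mock (SD, n = 3 each), a change of -0.36 with a limma adjusted p of 0.0708, and of -0.13 without estradiol 1 and 3 together (limma adjusted p 0.458). SAUR27 and SAUR28 were under the filter.

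The SAUR genes with the highest levels, SAUR6 and SAUR78, were lower by smaller amounts. SAUR6 (AT2G21210) had 56.2, 54.8 and 48.0 FPKM with estradiol and 71.2, 69.7 and 74.0 FPKM in mock, a log2 fold change of -0.43 (SE 0.0590, limma adjusted p 0.00112). It overlaps its tandem neighbour SAUR7 on the same strand, so fragments of the overlap could belong to either. SAUR78 (AT1G72430), which with SAUR76 and SAUR77 is known as an ethylene-responsive growth regulator, had 53.8, 53.9 and 52.0 FPKM with estradiol and 70.3, 71.4 and 69.6 FPKM in mock. Its change of -0.40 had the smallest error of the family (SE 0.0312, limma adjusted p 7.89e-05). SAUR76 (AT5G20820) had 2.92, 2.96 and 2.04 FPKM with estradiol and 6.0, 4.11 and 4.72 FPKM in mock, a change of -0.71 (SE 0.136), and did not pass without estradiol 1 and 3 together (limma adjusted p 0.0543). SAUR77 (AT1G17345) had 1.01, 0.93 and 1.10 FPKM with estradiol and 2.02, 1.47 and 1.2 FPKM in mock, and its call at a limma adjusted p of 0.0469 was lost under 9 of 13 alternatives, among them leaving out any one library other than mock 3, with a log2 change of -0.34 in all libraries and -0.21 without mock 1. Without estradiol 1 and 3 together it was -0.40 (limma adjusted p 0.150).

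**Figure D3:**
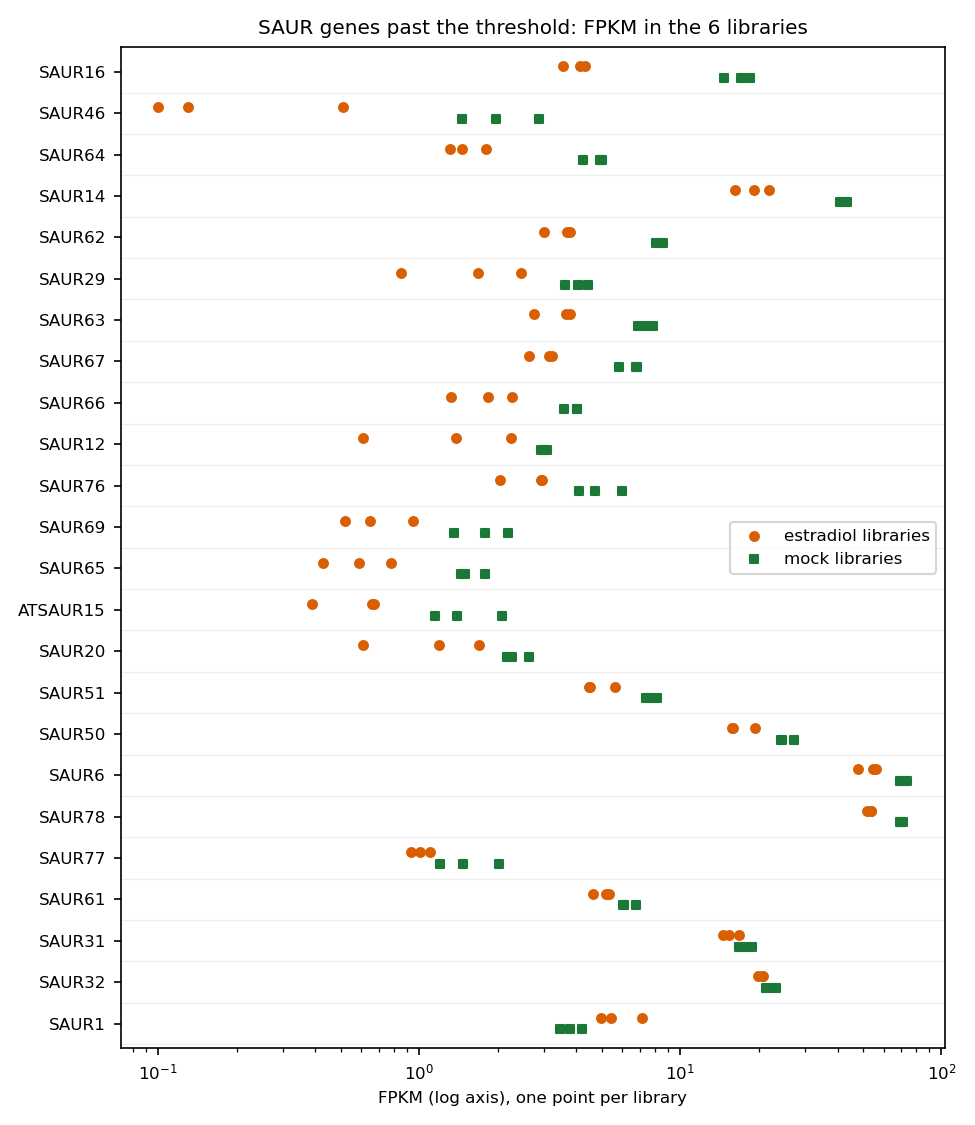
FPKM in each of the 6 libraries (log axis) of the 24 SAUR rows past the threshold, with estradiol libraries as circles above mock libraries as squares, sorted by log2 fold change. In the 23 lower rows all 3 circles lie left of all 3 squares, in SAUR1 they lie right of them, and the estradiol values of SAUR12, SAUR29 and SAUR46 are widely spread.

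Some lower calls were small in size or came from genes at low levels. SAUR32 (AT2G46690), which suppresses the apical hook when overexpressed, stood at 20.4 ± 0.505 FPKM with estradiol and 22.4 ± 0.988 FPKM in mock, and SAUR31 (AT4G00880) at 15.6 ± 1.11 and 17.8 ± 1.05 FPKM (SD, n = 3 each). Both were past the threshold by little (limma adjusted p 0.0397 and 0.0468) and lost the call under 9 and 7 of 14 alternatives, among them leaving out estradiol 1 and 3 together, which gave SAUR32 -0.11 (limma adjusted p 0.289) and SAUR31 -0.08 (limma adjusted p 0.486). SAUR31 overlaps a gene on the other strand. SAUR46 (AT2G37030) had 0.13, 0.51 and 0.10 FPKM with estradiol and 2.88, 1.97 and 1.46 FPKM in mock, a change of -1.31 (SE 0.179, limma adjusted p 0.00113). Its mean was 11.7% of mock, below the 23.9% of SAUR16, and with 0.1 in place of 1 added to FPKM its change was -2.81 against -2.04 for SAUR16. SAUR12 (AT2G21220) had 0.61, 1.38 and 2.24 FPKM with estradiol and 3.09, 2.97 and 2.93 FPKM in mock, a change of -0.79 (SE 0.212, limma adjusted p 0.0215). SAUR12 lost the call when any one mock library was left out and with no filter, with adjusted p up to 0.0661. SAUR69 (AT5G10990), at 0.707 ± 0.221 and 1.78 ± 0.415 FPKM in estradiol and mock libraries, was lower (log2 fold change -0.70) and lost the call without estradiol 1 and 3 together (limma adjusted p 0.0765). SAUR51 (AT1G75580), at 4.87 ± 0.647 FPKM with estradiol and 7.73 ± 0.359 FPKM in mock (SD, n = 3 each), had a log2 fold change of -0.58 with an SE of 0.0777 (limma adjusted p 0.00103) and kept the call under each of 14 alternatives.

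Members linked to stomata did not pass. SAUR56 (AT1G76190) and SAUR60 (AT1G20470) have been reported to promote stomatal opening in light. SAUR56 had 1.73, 1.30 and 1.32 FPKM with estradiol and 1.37, 0.46 and 1.47 FPKM in mock, and the 95% confidence interval of its log2 change of 0.26 ran from -0.18 to 0.69. SAUR60 had 4.31, 3.76 and 4.88 FPKM with estradiol and 4.58, 5.08 and 3.89 FPKM in mock, with an interval from -0.28 to 0.18. Both pairs of groups overlapped. SAUR60 overlaps genes on the other strand.

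Members of the SAUR41 class, which promote cell expansion, did not pass either. SAUR41 (AT1G16510), SAUR71 (AT1G56150) and SAUR72 (AT3G12830) averaged 2.11 ± 0.533, 3.23 ± 0.791 and 3.06 ± 0.217 FPKM with estradiol, against 1.96 ± 0.432, 2.59 ± 0.285 and 3.02 ± 0.217 FPKM in mock (SD, n = 3 each). The intervals of their log2 changes were -0.27 to 0.41, -0.07 to 0.51 and -0.13 to 0.16. SAUR40, of the same class, stayed under 0.4 FPKM. Also short of the threshold were SAUR37 (AT4G31320), the row with the highest mean among those not past it with estradiol, at 14.4 ± 0.954 FPKM with estradiol and 13.2 ± 1.05 FPKM in mock, and SAUR55 (AT5G50760), at 10.5 ± 1.39 and 12.8 ± 1.43 FPKM. SAUR55 passed as lower under 5 of 14 alternatives, both other scalings among them. SAUR47 and SAUR8, which overlap genes on the other strand, and SAUR53, SAUR57, SAUR59 and SAUR74 differed by -0.09 to 0.15 on the log2 scale, and the SAUR21 row by 0.04.

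**Figure D4:**
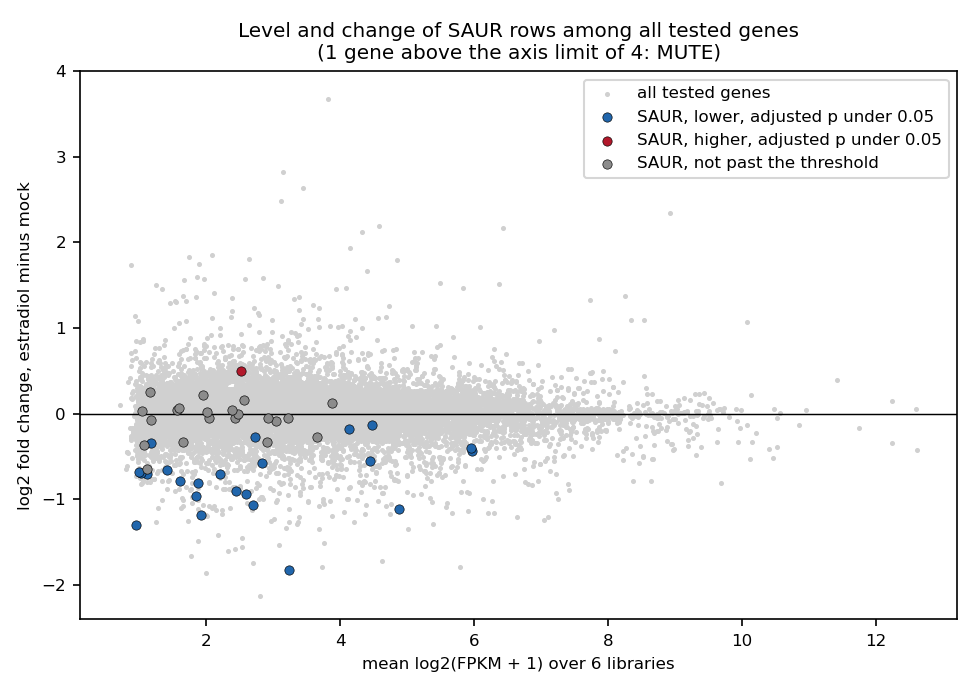
Mean level over the 6 libraries, as log2(FPKM + 1), against the log2 fold change of all 19134 tested genes in grey and of the 45 tested SAUR rows in colour. Lower SAUR rows occur from the lowest levels to the highest of the family, SAUR6 and SAUR78, and SAUR16 lies near the lower edge of all genes.

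Below the filter were 32 rows, of which 3 (SAUR18, SAUR25 and SAUR39) were listed at 0 in each library and 28 reached 1 FPKM in none. The highest single value among the 32 was 1.39 FPKM. In 6 of the 32 the estradiol values all lay below the mock values, and in 1, SAUR52, they all lay above. Over all tested genes these shares were 17.4% and 33.7%. Those over all rows below the filter were not counted, so the 6 rows are given as a description only. Just outside the filter, SAUR27 had 0.20, 0.67 and 0.16 FPKM with estradiol and 1.07, 1.39 and 0.90 FPKM in mock, and SAUR75 had 0.35, 0.54 and 0.35 FPKM with estradiol and 1.19, 1.09 and 0.69 FPKM in mock. SAUR75 shared 30.0% of its stretches of 50 bases with another gene, mostly SAUR62. Just inside it, SAUR65 had 0.78, 0.43 and 0.59 FPKM with estradiol and 1.5, 1.78 and 1.45 FPKM in mock. SAUR9, whose protein inhibits PP2C.D phosphatases, had 0.11, 0.10 and 0.17 FPKM with estradiol and 0.37, 0.53 and 0.43 FPKM in mock, and passed as lower when no filter was applied (limma adjusted p 0.00384), as did SAUR27, SAUR75 and SAUR79. SAUR10 and SAUR7 were the other 2 rows with all estradiol values lower. The remaining rows were SAUR2, SAUR11, SAUR17, SAUR19, SAUR22, SAUR23, SAUR28, SAUR33, SAUR34, SAUR35, SAUR38, SAUR40, SAUR42, SAUR43, SAUR44, SAUR45, SAUR48, SAUR54, SAUR58, SAUR68, SAUR70 and SAUR73, whose groups overlapped. The senescence-associated gene SAG201 (AT2G45210), annotated as SAUR36 but named otherwise in the table, had 2.48, 3.34 and 3.01 FPKM with estradiol and 4.15, 4.43 and 3.56 FPKM in mock, a log2 fold change of -0.36 (limma adjusted p 0.0206).

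Across all upstream windows of 250 bases, TGTCTC occurred in 5 of the 23 lower rows (SAUR62, SAUR66, SAUR67, ATSAUR15 and SAUR20) and in 0 of the 22 tested rows that were not lower. These 5 are not independent, since SAUR62, SAUR66 and SAUR67 are of the same array. SAUR62 and SAUR67 held the element inside a shared run of 26 bases. ATSAUR15 entered the test through its mock values alone and could only be lower. It also stood in 2 of the 32 rows below the filter, SAUR7 and SAUR22, and thus in 7 of all 77 rows or 9.09%. It occurred in 10.9% of 27443 protein-coding genes of the same assembly. TGTCGG stood in 1 of the 23 lower rows, SAUR63, and in 4.16% of all windows. CACGTG, the G-box that PIF factors bind and a special case of CANNTG, was found in 1 of the 77 rows, SAUR59, and in 6.49% of all windows. CANNTG occurred in 16 of the 23 lower rows, 18 of the 22 other tested rows and 55.3% of all windows. These letters are described and not tested, and a window without them says nothing of binding elsewhere.

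The rest of the auxin pathway was described by lists of genes. By the same rule 12.9% of all tested genes were lower and 23.3% were higher. Of 12 other early auxin genes (Aux/IAA repressors and GH3 enzymes that conjugate auxin), 9 were tested, 7 were lower and 0 were higher, with a median log2 fold change of -0.35. IAA3 had 7.99, 7.37 and 6.68 FPKM with estradiol and 13.4, 13.04 and 13.4 FPKM in mock, a change of -0.78 (SE 0.0586, limma adjusted p 6.83e-05). Log2 fold changes were -0.45 for IAA2, -0.53 for the GH3.3 row (AT2G23170), -0.39 for IAA19, -0.35 for GH3.6 (listed as DFL1), -0.35 for IAA1 (listed as AXR5) and -0.26 for the GH3.5 row (AT4G27260), all lower with estradiol. The groups of the GH3.5 row overlapped, and with no filter it did not pass (limma adjusted p 0.0798). Upstream of these genes in the pathway, of the auxin receptors TIR1 and AFB1 to AFB5 and the activating response factors ARF5 to ARF8, all 10 were tested, 1 was higher and 0 were lower, with a median of 0.04. The one was AFB4, at 3.63 ± 0.231 FPKM with estradiol and 2.95 ± 0.227 FPKM in mock (SD, n = 3 each, change 0.23, limma adjusted p 0.0236). The row of ARF19 could not be assigned and is not used here.

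Among the targets of SAUR proteins, all 9 PP2C.D phosphatases were tested, 2 were higher and 1 was lower, with a median of 0.09. Over all tested genes 23.3% were higher and 12.9% were lower, so the counts of this list were near those shares. PP2C.D7 (AT5G66080, listed as APD9) had 3.99, 4.22 and 4.14 FPKM with estradiol and 0.85, 1.23 and 1.11 FPKM in mock. Its groups were far apart, with a log2 fold change of 1.31 (SE 0.0760, limma adjusted p 1.87e-05). PP2C.D3 (AT3G12620) was higher by 0.24 (limma adjusted p 0.00359) and PP2C.D5 (listed as APD6) was lower (-0.17, limma adjusted p 0.0153). PP2C.D1 (AT5G02760, listed as APD7), at 26.2 ± 3.56 FPKM with estradiol and 33.5 ± 5.04 FPKM in mock, had the highest mock mean of the 9 and did not pass (-0.34, limma adjusted p 0.0512). Of 11 plasma membrane H+-ATPases 8 were tested, 2 were lower and 0 were higher. AHA2, a proton pump abundant in roots, was at 79.9 ± 2.29 FPKM with estradiol and 89.7 ± 1.64 FPKM in mock, a change of -0.17 (limma adjusted p 0.00704), and AHA7 was lower too (-0.41, limma adjusted p 0.000706). AHA1, with the highest level of the list at 183.9 ± 1.60 and 176.6 ± 6.93 FPKM in estradiol and mock libraries, did not pass (0.06, limma adjusted p 0.239).

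**Figure D5:**
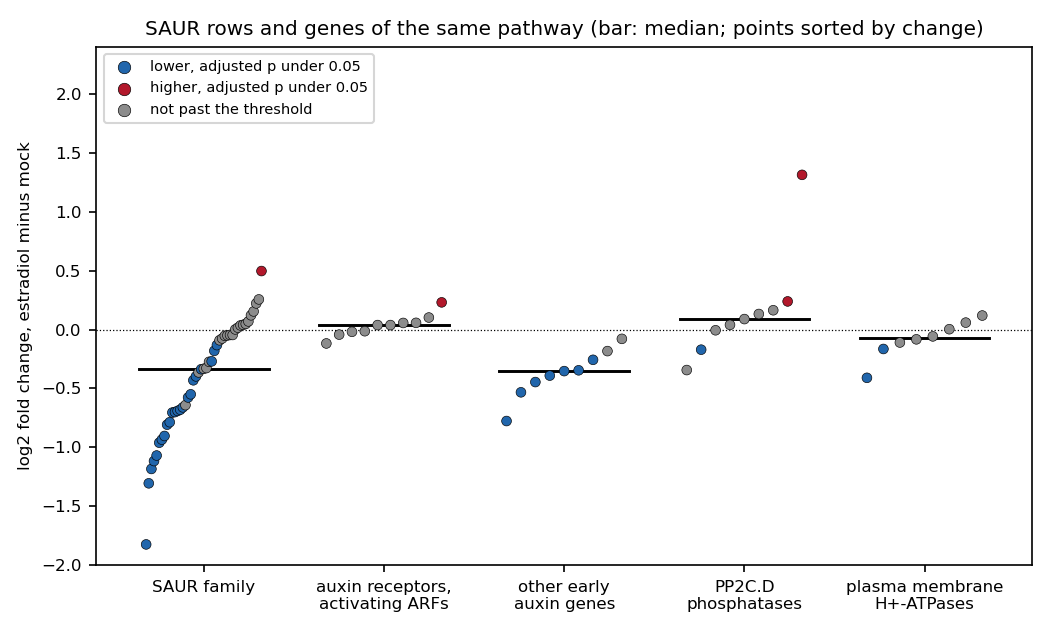
Log2 fold change of the tested SAUR rows and of 4 lists of genes of the same pathway, each point a gene and each bar a median. The auxin receptors and activating response factors lie between -0.12 and 0.23, the other early auxin genes all lie below 0, and PP2C.D7 at 1.31 stands above the rest.

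Markers of other cell types moved in the same libraries, in which 12.9% of all tested genes were lower and 23.3% were higher. All 4 root hair markers (EXPA7, EXPA18, COBL9 and PRP3) were lower with estradiol, and their summed level was 57.4 to 67.6 FPKM in estradiol and 107.7 to 118.0 FPKM in mock libraries. Of 3 endodermis markers 2 were higher, with sums of 45.2 to 46.4 FPKM in estradiol and 37.8 to 41.1 FPKM in mock libraries. Of 2 epidermis markers PDF1 was higher, by 0.98, and ATML1 stood at 10.4 FPKM in both groups. None of 3 phloem markers passed (summed level 59.3 to 64.5 and 60.4 to 63.6 FPKM in estradiol and mock libraries). Of 4 photosynthetic markers RCA was lower (-0.39), RBCS1A, CAB1 and CAB2 did not pass, and CAB2 stood at 3399, 215 and 1800 FPKM in estradiol 1, 2 and 3, against 216 ± 15.9 FPKM in mock (SD, n = 3). The part of these shifts in the SAUR values was not tested. In all 23 SAUR rows called lower each estradiol value lay below each mock value, and the same held for all 4 root hair markers. Whether the SAUR and marker changes are linked was not tested.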

How the data were processed

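The authors deposited FPKM values for the 6 libraries in one table of 33511 named rows. The submitters' processing notes name TopHat2 2.0.13, DESeq2 and build TAIR10, without saying what each was used for; quantifier, annotation and any further scaling are not given in the sources used here. Samples were grouped by title. The table held 1 further numeric column with no sample in its heading, which was not used. Names were matched to RefSeq TAIR10.1 (96.9% of rows).

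Genes with at least 1 FPKM in at least 3 of the 6 libraries entered a linear model of log2(FPKM + 1) in limma (version 3.58.1, R 4.3.3; eBayes with trend, two-sided, group as the only term), with Benjamini-Hochberg adjustment over the 19134 tested genes and a threshold of 0.05. The fit was tested on simulated data. Alternatives changed the pseudocount, the filter, the scaling, the trend and the libraries used, or added a replicate block. Sequence properties and figures were made in Python 3.11.15 (pandas 2.3.3, numpy 2.4.6, matplotlib 3.10.9). Members and gene lists were chosen with earlier results of these data known. Each tested member is named, and of each pathway and marker list the members past the threshold and up to 4 others. Counting intervals need a depth, which FPKM does not give. Each library is a pool of seedlings, per the labels, and nothing says whether the pools were grown separately, so p-values measure the spread between these libraries.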

Additional observations from a re-analysis of the deposited data

How the results depend on the processing

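The count of lower SAUR rows was 21 to 24 with a pseudocount of 0.1, no filter, quantile or median-of-ratios scaling, no trend or the replicate block (22 with the block), against 23 as reported, and 1 row was higher in each. Over all genes 6038 to 6911 passed in either direction in these fits, with 26727 tested under no filter and 19134 in the others. With the filter at 5 FPKM, 19 rows were tested, of which 14 were lower and 0 were higher, since SAUR1 was not among them. Of all 12301 genes tested at that filter, 5705 passed in either direction. Leaving out one library gave 19 to 23 lower rows (19 without mock 2) and 1 to 2 higher rows (SAUR47 in addition without mock 1), a median SAUR change of -0.406 to -0.286, a median of all genes of 0.033 to 0.058 and 5337 to 5794 genes past the threshold. Alternatives chosen after seeing the data gave 17 lower rows without estradiol 1 and 3 together (all genes: 3230 past the threshold, median 0.058, with the lone estradiol library assumed to vary like the others), 25 of 46 when the family was taken from the annotated product (the row of AT5G18030, kept through mock values alone, among them), and 15 of 32 among rows with under 5% shared stretches and no overlapping gene. The median SAUR change was -0.403 with a pseudocount of 0.1, -0.143 with no filter and -0.367 with median-of-ratios size factors. That of all genes was 0.056, 0.019 and 0.001 in the same fits and 0.016 after quantile normalization. Counts from fewer libraries or rows are not directly comparable with the 23 of the full fit, and why they differ was not tested.

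Of the 23 lower rows 14 stayed past the threshold under each alternative that tested them, 9 lost it under at least 1 and 0 changed sign. Each estradiol value of the lower rows lay below each mock value, so only a change of scaling could have turned their sign. Among rows not past the threshold the sign was unstable near 0. With libraries scaled by quantiles or by median-of-ratios factors it turned for SAUR21 (-0.005 and -0.007), SAUR49 (-0.042 and -0.046) and SAUR72 (-0.027 in both). Without estradiol 1 and 3 together it turned for SAUR21 (-0.001), SAUR3 (0.013), SAUR41 (-0.222), SAUR49 (-0.051), SAUR59 (0.041), SAUR74 (0.005) and SAUR5, which then passed as higher (0.289, limma adjusted p 0.0343). The cause was not tested. Leaving out one library gave -0.136 to 0.013 for SAUR13, -0.003 to 0.067 for SAUR21, -0.051 to 0.214 for SAUR41, -0.03 to 0.041 for SAUR49, -0.219 to 0.111 for SAUR5, -0.097 to 0.176 for SAUR53, -0.137 to 0.024 for SAUR60, -0.03 to 0.057 for SAUR72 and -0.013 to 0.082 for SAUR8.

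The deviations of libraries that share a replicate number correlated at -0.0064, 0.0474 and -0.002, against -0.0512 to 0.0534 for libraries of different numbers. This gave no sign of pairing by number, but correlations from so few libraries cannot exclude it. With the replicate block 6038 genes passed, against 6928 without it. Counting error at levels near 1 FPKM is unknown, because depth is.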
